A study of Homo sapiens with 17 samples.

Results

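The comparison concerned libraries of cells that received a plasmid naming a human gene for activation, set against libraries of cells that received a plasmid whose label names no human gene. All libraries without a number before the label were taken, apart from E7, which gave 12 of the 17 libraries of the series. The activation arm held 9 libraries under 7 plasmid labels: TTR, TRPC5OS, LAPTM4B 1 and 2, ADORA2A, UBE2V1, COL6A6, and GOLGA8N 1 and 2. The control arm held the 3 libraries Neg, RFP and GFP. The 4 number-prefixed libraries and E7 were left out.

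Every library came from K562, a human chronic myeloid leukaemia line that carries the BCR-ABL1 fusion and can make embryonic and fetal globin. Per the labels, cells of both arms were electroporated with CRISPR plasmids, were then given an antisense oligonucleotide (ASO, a short strand that pairs with a target RNA), and were harvested on day 6. No untreated or ASO-free cells are among the 12 libraries, so every value below compares plasmids in cells that had both treatments. The labels do not say what Neg stands for, which ASO was used, or whether libraries came from separate cultures. The 9 activation libraries are not replicates of 1 treatment, and a p-value here speaks only to the spread among these libraries, part of which may be technical. RNA was primed at the poly(A) tail with primers carrying molecular identifiers of 12 bases, so a read marks a transcript end and not its whole length.

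Oxidative phosphorylation couples the respiratory complexes I to IV of the inner mitochondrial membrane to ATP synthase. The mitochondrial genome encodes core subunits of complexes I, III, IV and of ATP synthase together with its own ribosomal RNAs and transfer RNAs, and the nucleus encodes the remaining subunits. In CRISPR activation, a guide RNA commonly brings a catalytically dead Cas9 with a transcriptional activator to the start of a chosen gene, and a control plasmid lacks such a target.

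The label calls the cells lymphoblasts, and the RNA carried the markers of an erythroleukaemia line. All 19 K562 defining markers (GATA1, TAL1, the globins, TFRC and others) had enough reads to be tested and took 0.777% to 1.27% of the reads in the activation libraries and 0.829% to 0.887% in the controls. Of 29 lymphoid markers only CD3D, CD3G, TRBC1 and CD22 had enough reads, and the whole list took 0.00432% to 0.0145% of reads in the activation libraries and 0.00505% to 0.0127% in the controls. CD3E, CD2, CD7, CD8A, MS4A1, CD79B, EBF1, DNTT, IGHM and IGKC had no read in any of the 12 libraries.

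Depth ran from 2300306 to 4011633 estimated reads in genes over the activation libraries, while Neg had 3273709, RFP 3110350 and GFP only 549962. At 3 reads the limit of what a count of 0 allows was 0.748 to 1.304 reads per 1000000 reads in genes (CPM) in the activation libraries, 0.916 in Neg, 0.965 in RFP and 5.455 in GFP, a limit that covers counting error only. After thinning to 500000 reads, 12589 ± 812.1 genes were seen per activation library (SD, n = 9) and 12830 ± 1815 per control library (SD, n = 3), a difference within the spread (exact two-sided permutation test, p = 0.709, and p = 0.145 without GFP).

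The genes named on the plasmids were measured first, because they check the labels. TTR, which encodes the thyroxine carrier transthyretin, had 40 reads or 11.7 normalised CPM (CPM of the library size after TMM scaling, which levels libraries on the bulk of their genes) in the TTR library, 3 reads in GOLGA8N 2, 2 reads in Neg and none in the other 9 libraries. UBE2V1, a ubiquitin-conjugating enzyme variant, stood at 144 normalised CPM in the UBE2V1 library, above 70.7 to 122 in the other activation libraries and above 66.0 in Neg, 119 in RFP and 81.4 in GFP. LAPTM4B, a lysosomal membrane protein, had 183 and 222 normalised CPM in LAPTM4B 1 and 2, inside the range of 168 to 279 in the other activation libraries and beside 261 in Neg, 226 in RFP and 218 in GFP. No ADORA2A read was counted in the ADORA2A library, no COL6A6 read in the COL6A6 library, and neither TRPC5OS nor GOLGA8N reached 1 read in any of the 12 libraries. A count of 0 allowed up to 0.748 CPM in the ADORA2A library, 1.205 in COL6A6, 1.304 in TRPC5OS, and 1.134 and 1.146 in GOLGA8N 1 and 2. With 1 library against 11, no exact permutation test could pass 0.05, and these levels are given without a test. TTR and UBE2V1 were thus highest in the libraries that carry their names. For UBE2V1 the margin was small, 144 beside 122 in another activation library and 119 in RFP. The UBE2V1 library was also the highest of the 12 for 21.8% of the 1280 genes averaging 100 normalised CPM or more. Whether its rank for UBE2V1 goes with the plasmid or with this wider pattern was not tested. A higher level of the named gene was not seen in the LAPTM4B libraries, and was not detectable at this depth in the ADORA2A, COL6A6, TRPC5OS and GOLGA8N libraries. GOLGA8N has similar copies such as GOLGA8A and GOLGA8B. Whether the quantifier gave its reads to such a copy was not tested, so its floor is not a firm bound. The word activation below therefore stands for the plasmid label and not for a measured activation.

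Of 12197 genes tested, 7 passed an adjusted p of 0.05 in edgeR's quasi-likelihood test with Benjamini-Hochberg adjustment, which is 0.0574% of all genes. The 6 genes higher in the activation libraries (0.0492% of those tested) were the mitochondrial genes MT-ND3, MT-ND1, MT-RNR1, MT-TN and MT-TA and the nuclear gene NDUFA1. The 1 lower gene (0.0082%) was AC079781.5, which passed the filter on read counts only through the controls. On simulated data the fit recovered only 4 of 50 genes changed 1.5-fold and 8 of 50 changed 2-fold. A gene or list without a call, here and below, may therefore still have changed. At an unadjusted p under 0.05, 636 genes were higher (5.21%) and 356 lower (2.92%), and the median log2 fold change of all genes tested, activation over control, was 0.02. All 9 activation libraries lay above all 3 controls for 207 genes (1.7%) and below all 3 for 84 genes (0.689%).

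The number of calls moved with single libraries. No gene was called by edgeR without Neg, LAPTM4B 1, ADORA2A or GOLGA8N 1, where 1192, 960, 871 and 945 genes had an unadjusted p under 0.05, while 1 was called without RFP or without COL6A6, 2 without GFP, 6 without UBE2V1, 8 without TRPC5OS, 10 without LAPTM4B 2, 12 without TTR and 13 without GOLGA8N 2. DESeq2 called 78 genes on the same libraries, 75 of them higher, and 6 were shared with the 7.

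MT-ND3 encodes a membrane subunit of complex I and lies at positions 10059 to 10404 of the mitochondrial genome (GRCh38, plus strand). Its level was 14178 normalised CPM in LAPTM4B 2, the lowest activation library, 16712 at the median and 19798 in UBE2V1, the highest, against 11700 in Neg, 12696 in RFP and 12591 in GFP. Every activation library was therefore above every control library, and the arms averaged 16908 ± 1474 (SD, n = 9) and 12329 ± 548 (SD, n = 3). The log2 fold change was 0.46 ± 0.0759 (SE; adjusted p = 0.0197, edgeR's quasi-likelihood test). Without GFP it was 0.48, with an adjusted p of 0.0287, and MT-ND3 was then the only 1 of the 7 genes still called.

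MT-ND1, another complex I subunit (positions 3307 to 4262), was at 5038 normalised CPM in LAPTM4B 2, 5711 at the median and 7754 in UBE2V1, and at 4144 in Neg, 4375 in RFP and 3904 in GFP. MT-RNR1, the small ribosomal RNA of the mitochondrion (positions 648 to 1601), was at 4204 in GOLGA8N 2, 4849 at the median and 6087 in UBE2V1, and at 3525, 3551 and 3580 in Neg, RFP and GFP. Neither gene had an activation library as low as a control, and UBE2V1 was the highest library for both. The log2 fold change was 0.54 ± 0.0999 for MT-ND1 and 0.48 ± 0.0921 for MT-RNR1 (SE; adjusted p = 0.0389 for both, edgeR's quasi-likelihood test).

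MT-TN and MT-TA encode the mitochondrial transfer RNAs for asparagine and alanine. MT-TN was at 519 normalised CPM in the TTR library, 619 at the median and 786 in GOLGA8N 1, and at 395 in Neg, 464 in RFP and 337 in GFP, a log2 fold change of 0.67 ± 0.133 (SE). MT-TA was at 1901 in LAPTM4B 2, 2367 at the median and 2789 in GOLGA8N 1, and at 1628, 1793 and 1494 in Neg, RFP and GFP, a log2 fold change of 0.53 ± 0.106 (SE). The arms did not overlap for either gene, and both had an adjusted p of 0.0389 in edgeR's quasi-likelihood test. Both lie on the minus strand (positions 5657 to 5729 and 5587 to 5655) between MT-ND2 and MT-CO1 of the plus strand, and with the strand setting not stated, reads of the opposite transcript cannot be told apart from theirs.

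NDUFA1, on chromosome X at 119871487 to 119876662 (plus strand, GRCh38), encodes a small membrane subunit needed to assemble complex I. It was at 1350 normalised CPM in LAPTM4B 2, 1627 at the median and 2010 in UBE2V1, and at 1084 in Neg, 1154 in RFP and 1037 in GFP. The lowest activation library was thus above the highest control. The log2 fold change was 0.55 ± 0.108 (SE; adjusted p = 0.0389, edgeR's quasi-likelihood test), and without GFP it was 0.52 with an adjusted p of 0.335.

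**Figure D1:**
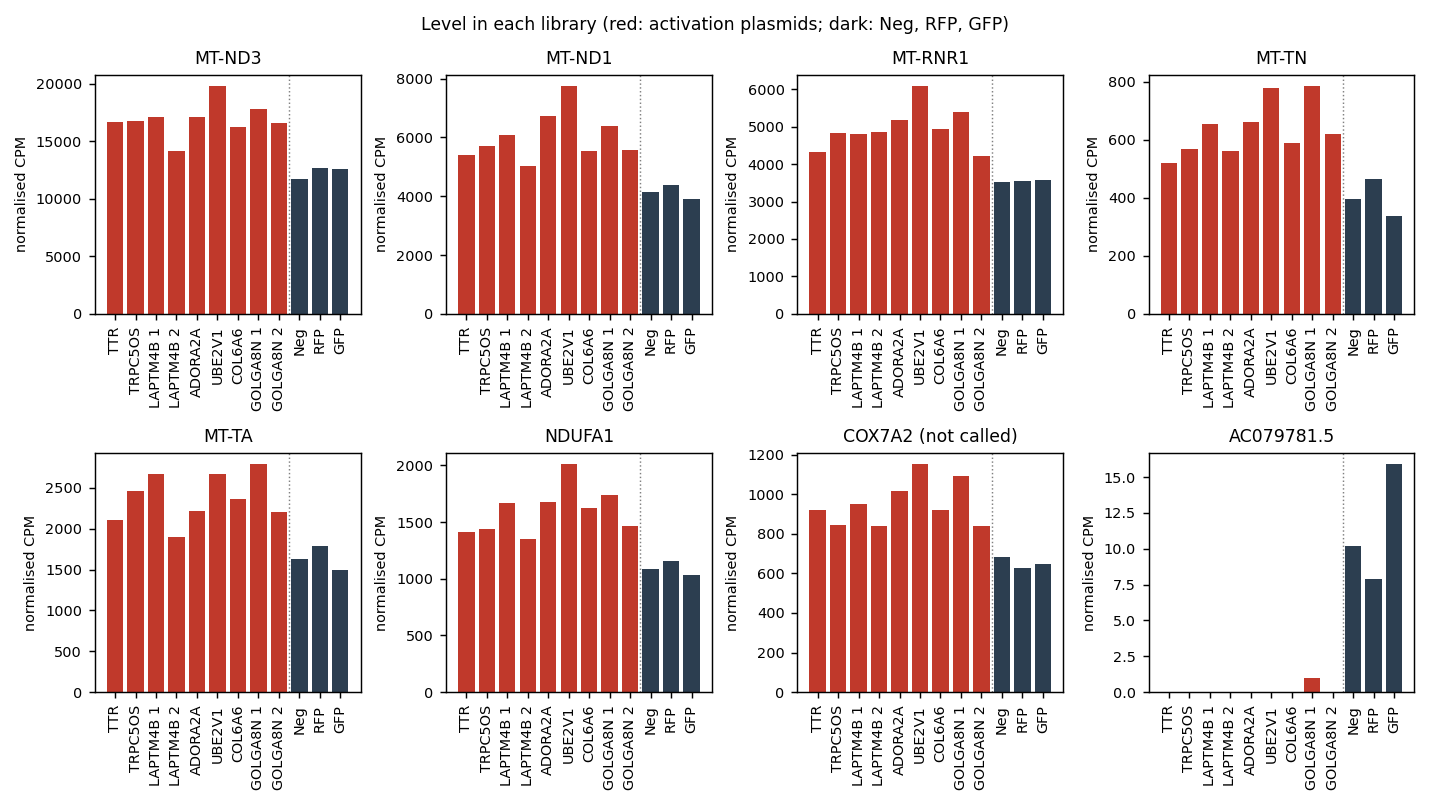
Level in normalised CPM of the 7 called genes and of COX7A2, the gene with the next lowest p, in each library, with the activation libraries on the left and Neg, RFP and GFP on the right of each panel. For the 7 higher genes shown, the lowest activation bar is above the highest control bar, and AC079781.5 has a bar in only 1 activation library.

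AC079781.5 is a processed transcript on chromosome 7 (97851688 to 97972985, minus strand, GRCh38) whose exons overlap those of ASNS, the asparagine synthetase gene, on the same strand. It had 2.4 estimated reads in GOLGA8N 1 and 0 in the other 8 activation libraries, against 35.9 in Neg, 25.5 in RFP and 9.7 in GFP. The pooled rate in the activation libraries was 0.00721 of that in the controls (exact 95% interval 0.000857 to 0.027, counting error only; adjusted p = 0.0389, edgeR's quasi-likelihood test). The prefixed libraries and E7, which entered no comparison here, had 0 reads of it. ASNS was at 149 to 210 normalised CPM in the activation libraries and 141, 138 and 134 in Neg, RFP and GFP. With the reads of both genes summed no lower gene was called. ASNS holds most of that sum and had a log2 fold change of 0.28 by itself. The sum could therefore hardly be called lower, and no conclusion is drawn from it. How the quantifier divided reads between these overlapping transcripts was not tested.

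The whole mitochondrial genome was then described gene by gene, since 5 of its 37 genes were called. Of the 37, 34 had a fitted value above 0 and 20 an unadjusted p under 0.05, all of them higher, with a median log2 fold change of 0.37 beside 0.02 for all genes tested. For 12 of the 37 every activation library was above every control, which is to be read against 1.7% of all genes. These genes share the mitochondrial genome and need not vary separately, so such counts are not counts of independent results. In the plain share of reads the arms overlapped, with 10.8% to 13.1% of reads in the 13 messenger RNAs over the activation libraries and 10.5% in Neg, 11.5% in RFP and 11.5% in GFP. The complex I messenger RNAs were 7 of 7 above 0, from 0.36 for MT-ND4 to 0.63 for MT-ND5, with a median of 0.45. The 6 messenger RNAs outside complex I had a median of 0.18, from -0.55 for MT-ATP8 to 0.33 for MT-CO1. A difference between these 2 groups of transcripts was not tested.

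MT-ND5, the largest complex I subunit made in the mitochondrion, was at 2430 normalised CPM in TRPC5OS, 2758 at the median and 3849 in UBE2V1, and at 1721 in Neg, 1889 in RFP and 2074 in GFP. The arms did not overlap, yet the gene missed the threshold (log2 fold change 0.63 ± 0.127, SE; adjusted p = 0.0616, edgeR's quasi-likelihood test).

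MT-CO2, a core subunit of complex IV, was at 16693 normalised CPM in the lowest activation library, 18542 at the median and 23042 in the highest, and at 18217 in Neg, 19631 in RFP and 16322 in GFP. Only 4 of the 9 activation libraries were above all controls, and the log2 fold change was 0.13 ± 0.0842 (SE; adjusted p = 0.751, edgeR's quasi-likelihood test). MT-ATP8, an ATP synthase subunit whose gene overlaps MT-ATP6, was the only 1 of the 13 messenger RNAs with a value below 0. It was at 317 to 954 in the activation libraries, 369 in Neg, 413 in RFP and 1919 in GFP, so that the shallow GFP library alone set its sign, and without GFP all 13 messenger RNAs were above 0.

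MT-TQ, the mitochondrial transfer RNA for glutamine, had the largest fold change of the 37 genes. It was at 840 normalised CPM in the TTR library, 1246 at the median and 1711 in UBE2V1, and at 642 in Neg, 688 in RFP and 532 in GFP. The arms did not overlap, and the gene missed the threshold (log2 fold change 1.03 ± 0.206, SE; adjusted p = 0.111, edgeR's quasi-likelihood test). Of the 22 mitochondrial transfer RNA genes, 20 were above 0 and 8 had an unadjusted p under 0.05. As for MT-TN and MT-TA, the strand setting is not stated. Reads of neighbouring or opposite transcripts therefore cannot be told apart from those of MT-TQ or the other transfer RNAs.

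The nuclear subunits of oxidative phosphorylation were mostly above 0 too, and 1 of them, NDUFA1, was called. Of 69 tested, 61 were above 0 and 28 had an unadjusted p under 0.05, all higher, beside 5.21% of all genes, with a median log2 fold change of 0.23. For 13 of the 69 every activation library was above every control, beside 1.7% of all genes. Those shares of all genes are not matched for abundance, and members of the list need not vary separately. The list took 3.42% to 3.79% of reads in the activation libraries and 3.34% in Neg, 3.28% in RFP and 3.2% in GFP, and the arms did not overlap in this plain share of reads, unlike the mitochondrial messenger RNAs. With the scaling left at library totals, 45 of 69 remained above 0 and the median was 0.07, beside -0.14 for all genes tested.

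By complex, a difference that was not tested, all 10 subunits of complex IV were above 0 (median 0.29), as were 8 of 9 of complex III (0.27), 16 of 17 of ATP synthase (0.19) and 26 of 29 of complex I (0.18). In complex II, which alone has no mitochondrially encoded subunit, 1 of 4 was above 0 and the median was -0.14. COX7A2, a small subunit of complex IV, was at 838 normalised CPM in GOLGA8N 2, 919 at the median and 1151 in UBE2V1, and at 683 in Neg, 625 in RFP and 646 in GFP, with no overlap (log2 fold change 0.55 ± 0.111, SE; adjusted p = 0.0504, edgeR's quasi-likelihood test). ATP5MG, a membrane subunit of ATP synthase, was at 1392 in TRPC5OS, 1638 at the median and 1828 in UBE2V1, and at 1241, 1211 and 954 in Neg, RFP and GFP, again with no overlap (0.50 ± 0.106, SE; adjusted p = 0.0672, edgeR's quasi-likelihood test). UQCRB, of complex III, had a log2 fold change of 0.43.

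The promoters of these 3 nuclear genes are printed because NDUFA1, COX7A2 and ATP5MG had the lowest p of the list. Each window runs from 250 bases before to 50 bases after the start in RefSeq (GRCh38.p14), which lies at chrX:119871582-119871881 (plus strand) for NDUFA1, chr11:118401356-118401655 (plus strand) for ATP5MG and chr6:75250249-75250548 (minus strand) for COX7A2. Capitals mark the letters CCGGAAG on either strand, a sequence bound by ETS-family factors in many promoters.
NDUFA1: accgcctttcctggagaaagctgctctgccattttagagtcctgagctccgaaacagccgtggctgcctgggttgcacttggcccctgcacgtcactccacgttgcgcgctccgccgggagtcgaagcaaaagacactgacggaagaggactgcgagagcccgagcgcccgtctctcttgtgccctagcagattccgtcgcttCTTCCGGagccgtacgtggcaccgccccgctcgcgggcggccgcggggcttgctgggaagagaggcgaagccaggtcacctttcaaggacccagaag
ATP5MG: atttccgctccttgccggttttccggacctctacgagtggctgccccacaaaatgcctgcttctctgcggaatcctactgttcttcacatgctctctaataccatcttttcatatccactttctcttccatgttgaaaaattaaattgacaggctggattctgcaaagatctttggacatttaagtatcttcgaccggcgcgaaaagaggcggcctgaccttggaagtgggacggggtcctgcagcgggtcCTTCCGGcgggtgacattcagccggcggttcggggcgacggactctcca
COX7A2: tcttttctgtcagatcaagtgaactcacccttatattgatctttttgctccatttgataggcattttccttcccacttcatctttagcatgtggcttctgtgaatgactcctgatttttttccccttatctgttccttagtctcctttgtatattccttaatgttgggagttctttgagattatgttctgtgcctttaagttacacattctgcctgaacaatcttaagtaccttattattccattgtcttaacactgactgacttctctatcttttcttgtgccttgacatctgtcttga
NDUFA1 and ATP5MG held 1 match each and COX7A2 held none. COX7A2 has another start, with a window at chr6:75243752-75244051 (minus strand) that is not printed and held no match either. Which of the COX7A2 starts these cells use was not tested. Over the list, 58 of 69 genes (84.1%) had a window, and 20 of the 58 (34.5%) held the letters, beside 12.2% of 27305 genes of the whole table. These 27305 also include genes that were not tested here, and the share among tested genes is not reported. The letters were as frequent in another list, since 22 of 63 cytosolic ribosomal protein genes with a window (34.9%) held them, and 4 of 27 sterol and fatty acid genes did (14.8%). A match is a description of the sequence and says nothing about which factor was bound in these cells.

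Cytosolic ribosomal protein genes, which encode the protein part of the translating ribosome, were above 0 for 78 of 79 members, with a median log2 fold change of 0.22 and with 48 at an unadjusted p under 0.05, all higher, beside 5.21% of all genes. None was called in edgeR's quasi-likelihood test. For 23 of the 79 every activation library was above every control, beside 1.7% of all genes. Ribosomal protein genes are abundant and need not vary separately, and the shares of all genes are not matched for abundance. RPL34, of the large subunit, was at 2164 normalised CPM in the lowest activation library, 2357 at the median and 2467 in the highest, and at 1789 in Neg, 1844 in RFP and 1817 in GFP (log2 fold change 0.36 ± 0.0826, SE; adjusted p = 0.111, edgeR's quasi-likelihood test). RPS24, of the small subunit, was at 5721, 6544 and 7729 on the same 3 ranks and at 5076, 5197 and 5048 in Neg, RFP and GFP (0.35 ± 0.0867, SE; adjusted p = 0.173). Large and small subunits had close medians, 0.2 over 47 genes and 0.23 over 32.

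RPL29 was the 1 ribosomal protein gene below 0, at -0.2. The list took 23.6% to 24.7% of all reads in the activation libraries, and 23.3% in Neg, 23.5% in RFP and 22.0% in GFP. With library totals in place of scaling factors, 54 of 79 were above 0 and the median was 0.06, beside -0.14 for all genes tested. Translation factors, a neighbouring list, had a median of 0.08 with 26 of 34 above 0, which turned to -0.07 under library totals. Of the 34, EIF3C and EIF4G1 had an unadjusted p under 0.05, in opposite directions. EIF3C, a subunit of initiation factor eIF3, was at 231 to 365 normalised CPM in the activation libraries and 217, 210 and 160 in Neg, RFP and GFP (log2 fold change 0.54 ± 0.145, SE; adjusted p = 0.213, edgeR's quasi-likelihood test). EIF4G1, the scaffold of the cap-binding complex, was at 308 to 421 and at 420, 328 and 643 in Neg, RFP and GFP (-0.34 ± 0.144, SE; adjusted p = 0.512).

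**Figure D2:**
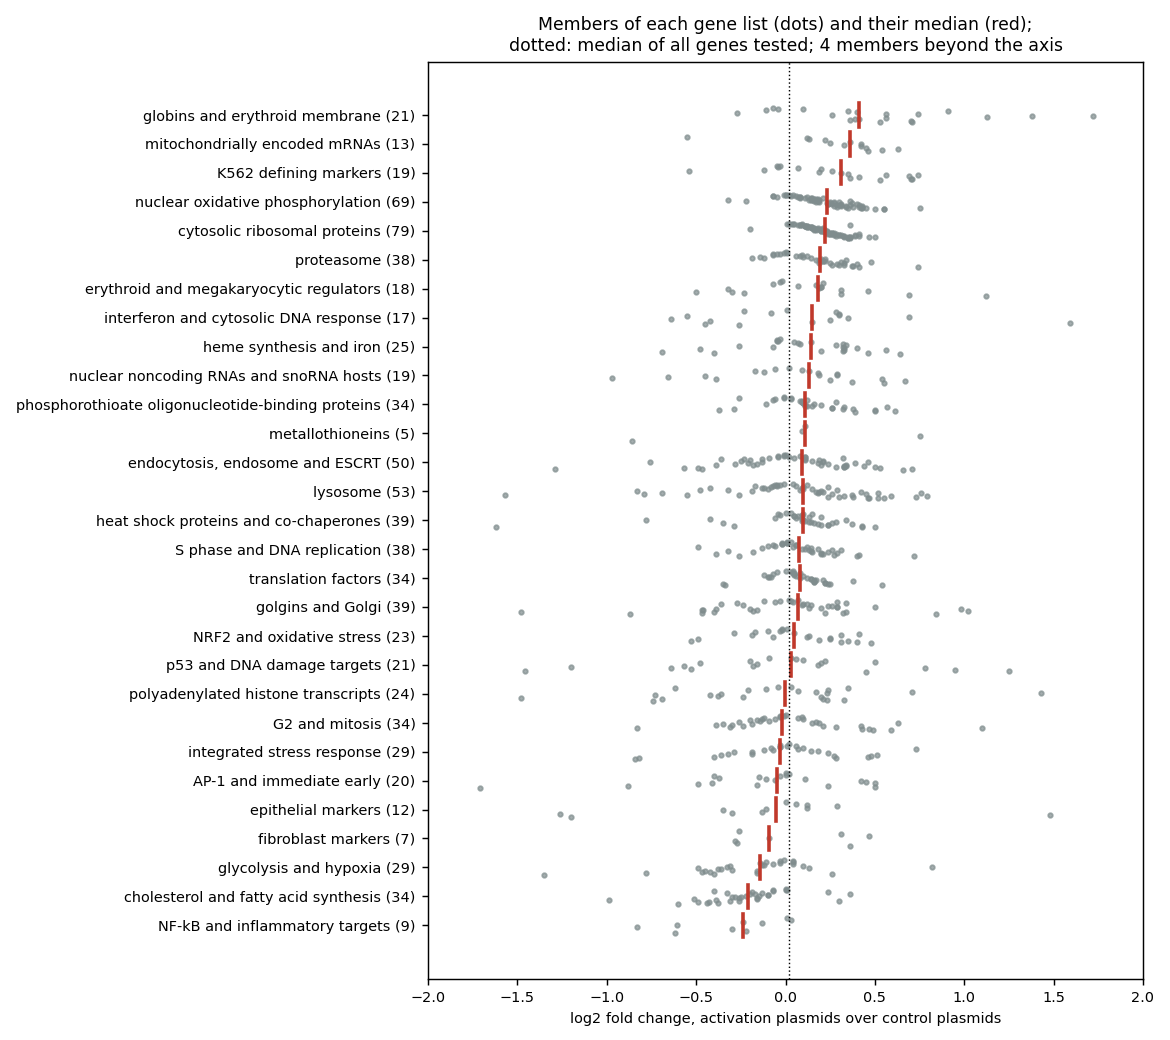
Log2 fold change, activation over control plasmids, of the tested members of 29 gene lists, each dot a gene, with the list median in red, the number of members in brackets and the median of all genes dotted. Globins and erythroid membrane genes, mitochondrial messenger RNAs, nuclear oxidative phosphorylation and ribosomal proteins sit right of the dotted line, and cholesterol and fatty acid synthesis sits left of it (4 members beyond 2 on either side are not shown).

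Red cell genes had the highest median of the 29 lists with at least 5 tested members when all 12 libraries were used, though without GFP or without Neg that of metallothioneins was higher. Of 21 tested globins and erythroid membrane genes, 17 were above 0, 11 had an unadjusted p under 0.05 and the median was 0.41, with none called. The share at an unadjusted p under 0.05 is to be read against 5.21% of all genes, which is not matched for abundance. The list took 0.834% to 1.35% of reads in the activation libraries and 0.92% in Neg, 0.872% in RFP and 0.899% in GFP, so the arms overlapped in the plain share. HBE1, the embryonic beta-like globin, was at 378 normalised CPM in the TTR library, 482 at the median and 629 in UBE2V1, and at 391 in Neg, 384 in RFP and 249 in GFP. The TTR library lay among the controls and the other 8 above them (log2 fold change 0.53 ± 0.15, SE; adjusted p = 0.232, edgeR's quasi-likelihood test). GYPB, glycophorin B of the red cell surface, was at 110 to 233 in the activation libraries, with a median of 131, and at 66.2, 94.8 and 97.7 in Neg, RFP and GFP, without overlap (0.71 ± 0.206, SE; adjusted p = 0.262).

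HBA1 was at 493 normalised CPM in the TTR library, 653 at the median and 1048 in UBE2V1, and at 440 in Neg, 526 in RFP and 301 in GFP (log2 fold change 0.70 ± 0.195, SE; adjusted p = 0.274, edgeR's quasi-likelihood test). HBA1 and HBA2, like HBG1 and HBG2, are nearly the same in sequence, and since the quantifier splits reads between such copies, each copy value is uncertain. GATA1, a transcription factor that sets this programme, was at 114 to 188 in the activation libraries and 156, 153 and 111 in Neg, RFP and GFP (0.07 ± 0.163, SE). TFRC, the transferrin receptor, was at 293 to 361 and at 410, 326 and 264 (-0.04 ± 0.128, SE). Heme synthesis and iron genes had 16 of 25 above 0 and a median of 0.14. Under library totals it was -0.02, beside -0.14 for all genes tested. In RNA from whole cultures, a larger share of cells that make globin and more globin RNA per cell cannot be told apart.

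The red cell and mitochondrial lists were also measured library by library. Measured as the median over members of the log2 deviation from the mean of the 12 libraries, mitochondrial messenger RNAs were at -0.14 in LAPTM4B 2, 0.00 in TTR and 0.40 in UBE2V1, with the other 6 activation libraries from 0.04 to 0.14, and at -0.40 in Neg, -0.23 in RFP and -0.24 in GFP. Globins and erythroid membrane genes were at -0.19 in TTR and 0.59 in UBE2V1, and at -0.26, -0.22 and -0.34 in Neg, RFP and GFP. Nuclear oxidative phosphorylation ran from -0.06 in TTR to 0.19 in UBE2V1, and stood at -0.17, -0.10 and -0.24 in the controls. Ribosomal proteins ran from -0.04 in TTR to 0.16 in UBE2V1, and stood at -0.12, -0.06 and -0.28. In all 4 lists UBE2V1 was the highest library, and the lowest activation library was still above the highest control. The arms overlapped for the K562 defining markers, a list that also holds globins. These markers were at -0.24 in TTR, and at -0.19, -0.21 and -0.3 in Neg, RFP and GFP. Their median log2 fold change was 0.31. Erythroid and megakaryocytic regulators overlapped too, at -0.12 in TTR and 0.08 in GFP. The separation of red cell genes thus depended on the list used.

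**Figure D3:**
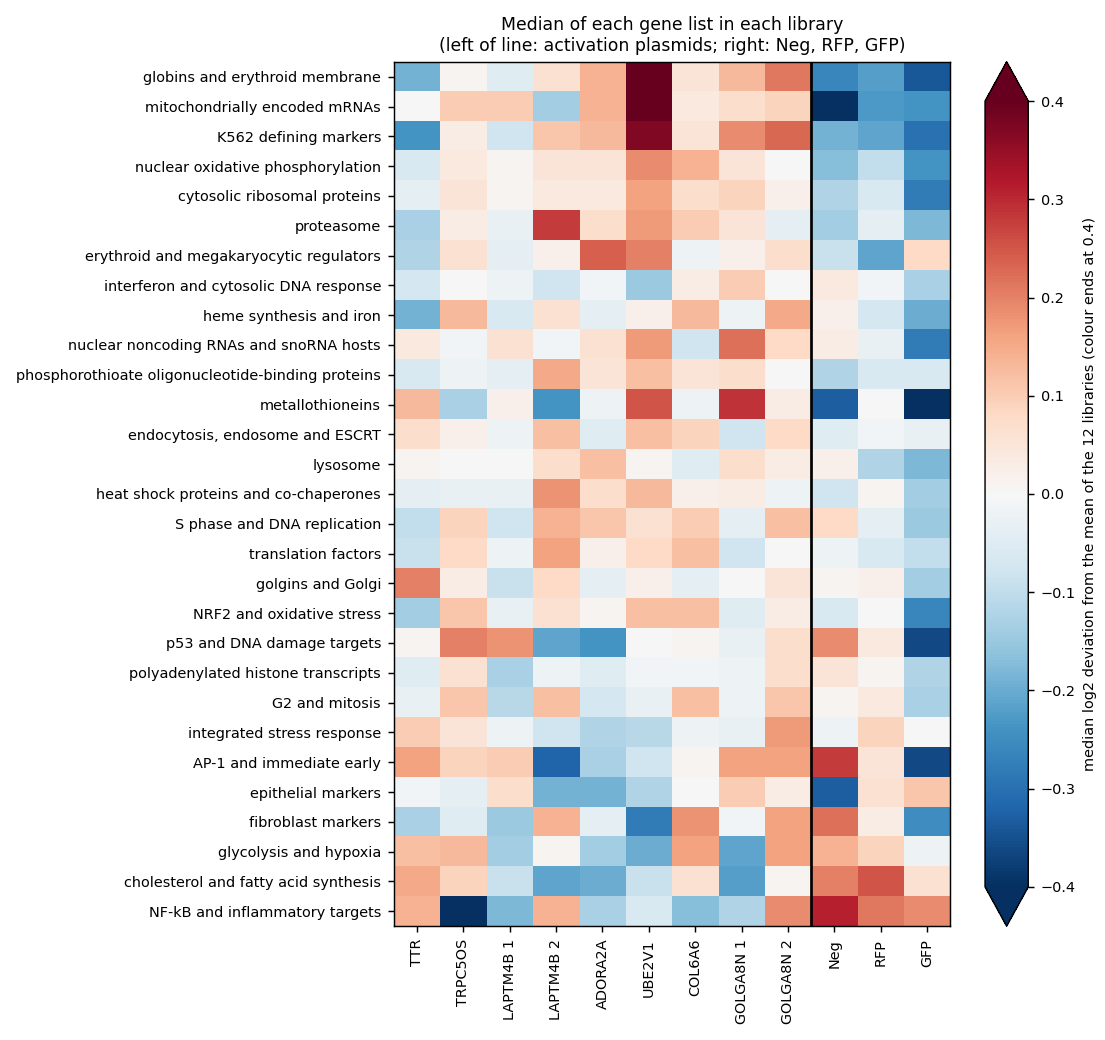
Median over list members of the log2 deviation from the mean of the 12 libraries, with lists down the side in the order of their median fold change, activation libraries left of the line and Neg, RFP and GFP right of it. The upper rows are darkest red in UBE2V1 and blue in all 3 controls, and GFP is blue in most rows.

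Sterol and fatty acid synthesis genes were mostly below 0. These genes are controlled by SREBP factors, which respond to the cell's sterol supply. Of 34 tested, 29 were below 0 with a median log2 fold change of -0.21, 5 of them at an unadjusted p under 0.05 beside 2.92% of all genes, and none was called in edgeR's quasi-likelihood test. FADS1, a fatty acid desaturase, was at 130 normalised CPM in UBE2V1, 153 at the median and 279 in TTR, and at 286 in Neg, 305 in RFP and 212 in GFP (-0.60 ± 0.184, SE; adjusted p = 0.292). HMGCS1, which makes the HMG-CoA of the mevalonate pathway, was at 134 in ADORA2A, 165 at the median and 284 in TTR, and at 284, 254 and 187 in Neg, RFP and GFP (-0.44 ± 0.177, SE; adjusted p = 0.5). The TTR library overlapped the controls for both genes, while 6 of 9 activation libraries lay below all 3 controls for FADS1 and 5 of 9 for HMGCS1.

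DHCR7, the last enzyme of one branch to cholesterol, was at 82.2 to 120 normalised CPM in the activation libraries and 127, 119 and 127 in Neg, RFP and GFP (log2 fold change -0.38 ± 0.158, SE; adjusted p = 0.511, edgeR's quasi-likelihood test). INSIG1, which holds SREBP back when sterols are plentiful, had a log2 fold change of -0.43. The list took 0.273% to 0.396% of reads in the activation libraries and 0.413% in Neg, 0.415% in RFP and 0.385% in GFP, and its median stayed between -0.36 and -0.16 under the 26 alternatives.

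Glycolysis and hypoxia genes were also more often below 0, 22 of 29, with a median of -0.14, which was -0.08 without GFP. P4HA1, a collagen prolyl hydroxylase that hypoxia induces, was at 6.77 normalised CPM at the lowest, 11.3 at the median and 19.3 at the highest over the activation libraries, and at 19.6 in Neg, 27.5 in RFP and 48.8 in GFP (log2 fold change -1.35 ± 0.381, SE; adjusted p = 0.232, edgeR's quasi-likelihood test). The arms did not overlap, though the highest activation value lay close to Neg. PKM, the pyruvate kinase of glycolysis, was, after P4HA1, the member with the lowest p, and had a value above 0, at 463 to 648 against 475, 500 and 396 in Neg, RFP and GFP (0.26 ± 0.12, SE; adjusted p = 0.567).

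Genes that handle proteins or bind oligonucleotides were next. Proteasome genes had 29 of 38 above 0 and a median of 0.19. PSME3, an activator of the proteasome core, was at 86.7 to 129 normalised CPM in the activation libraries and 57.9, 86.3 and 47.2 in Neg, RFP and GFP (0.74 ± 0.189, SE; adjusted p = 0.197, edgeR's quasi-likelihood test). Proteins known to bind phosphorothioate oligonucleotides, the chemistry of most ASOs, had 26 of 34 above 0 and a median of 0.11. That median turned to -0.05 under library totals, beside -0.14 for all genes tested. NPM1, a nucleolar chaperone of that list, was at 2589 at the lowest, 2949 at the median and 3154 at the highest over the activation libraries, and at 2238 in Neg, 2385 in RFP and 1977 in GFP, without overlap (0.39 ± 0.0896, SE; adjusted p = 0.111).

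XRCC6, a DNA end-binding protein, was at 198 to 339 normalised CPM in the activation libraries and 164, 211 and 163 in Neg, RFP and GFP (log2 fold change 0.61 ± 0.159, SE; adjusted p = 0.213, edgeR's quasi-likelihood test). SSB and TCP1 of the same list had log2 fold changes below 0, of -0.37 and -0.29. Heat shock proteins and co-chaperones had 30 of 39 above 0 and a median of 0.10. Under library totals it was -0.04, beside -0.14 for all genes tested. HSPE1, the mitochondrial co-chaperonin, was at 715 to 1067 and at 665, 660 and 695 in the controls, without overlap (0.43 ± 0.115, SE; adjusted p = 0.213). DNAJC3, of the endoplasmic reticulum, was at 1.71 to 13.2 and at 6.54, 13.0 and 48.8 (-1.62 ± 0.578, SE), with GFP alone far above the rest.

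The series title concerns uptake and activity of ASOs, so the compartments an ASO passes through were read as well. None of 53 lysosome, 50 endocytosis, endosome and ESCRT, or 39 golgin and Golgi genes was called. Their medians were 0.10, 0.10 and 0.07, beside 0.02 for all genes tested. Under library totals they were -0.04, -0.07 and -0.07, beside -0.14 for all genes tested, so the change of sign goes with a shift of all genes. Unadjusted p values under 0.05 numbered 8, 8 and 1, with 992 among all 12197 genes. RAB11B, a GTPase of recycling endosomes, was at 82.1 to 134 normalised CPM in the activation libraries and 55.7, 81.3 and 60.2 in Neg, RFP and GFP (0.66 ± 0.195, SE; adjusted p = 0.274, edgeR's quasi-likelihood test). EPN1, an adaptor of clathrin-coated pits, was at 117 or below and at 142, 141 and 142, also without overlap (-0.47 ± 0.147, SE; adjusted p = 0.292).

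LAPTM4A, a relative of LAPTM4B in lysosomal membranes, was at 167 to 204 normalised CPM in the activation libraries and 165, 118 and 92.8 in Neg, RFP and GFP (log2 fold change 0.47 ± 0.155, SE; adjusted p = 0.355, edgeR's quasi-likelihood test). GOSR2, a SNARE of the Golgi, was at 11.7 to 37.2 and at 16.8, 12.4 and 11.4 (0.84 ± 0.382, SE; adjusted p = 0.555). The lowest activation value of LAPTM4A lay close to Neg, and for GOSR2 the arms overlapped.

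Stress and immune lists gave no called gene in edgeR's quasi-likelihood test. NF-kB and inflammatory targets had the lowest median of those 29 lists, -0.24 over 9 tested genes with 2 above 0. Without GFP the median was -0.19 over 12 genes with 4 above 0, and that of sterol and fatty acid synthesis, -0.26, was then lower. NFKBIA, the inhibitor that NF-kB induces as its own brake, was at 19.9 to 31.4 normalised CPM in the activation libraries and 43.2 in Neg, 38.3 in RFP and 34.2 in GFP, without overlap (-0.62 ± 0.265, SE; adjusted p = 0.514). Interferon and cytosolic DNA response genes had 10 of 17 above 0 and a median of 0.15. With library totals it was just under 0, beside -0.14 for all genes tested. IFITM2, an interferon-induced membrane protein, was at 371 to 459 and at 454, 559 and 492 in Neg, RFP and GFP (-0.26 ± 0.11, SE; adjusted p = 0.514).

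DDIT3, the CHOP factor of the integrated stress response, was at 21.0 to 47.7 normalised CPM in the activation libraries and at 33.6, 52.7 and 89.5 in Neg, RFP and GFP (log2 fold change -0.84 ± 0.298, SE; adjusted p = 0.42, edgeR's quasi-likelihood test). That list as a whole had 14 of 29 above 0 and a median of -0.03. AP-1 and immediate early genes had a median of -0.05 over 20 genes and p53 and DNA damage targets 0.03 over 21. The sign of the AP-1 median turned to 0.13 without Neg, and that of the p53 median to -0.14 without GFP.

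TXN, the redox protein thioredoxin, was at 250 to 339 normalised CPM in the activation libraries and 180, 242 and 231 in Neg, RFP and GFP, without overlap (0.48 ± 0.14, SE; adjusted p = 0.263, edgeR's quasi-likelihood test). The list it came from, NRF2 and oxidative stress genes, had 13 of 23 above 0 and a median of 0.05. Metallothioneins had 4 of 5 above 0 and a median of 0.11, which was 0.62 without GFP and 0.5 without Neg. It was -0.04 with library totals, beside -0.14 for all genes tested, and their values rested on few reads.

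Cell cycle lists lay near the median of all genes. S phase and DNA replication genes had a median of 0.08 over 38 genes, G2 and mitosis genes -0.02 over 34, and polyadenylated histone transcripts close to 0 over 24. MCM2, a subunit of the replicative helicase, was at 87.2 to 181 normalised CPM in the activation libraries and 90.4, 72.3 and 71.6 in Neg, RFP and GFP (0.72 ± 0.223, SE; adjusted p = 0.288, edgeR's quasi-likelihood test). ZFAS1, a snoRNA host transcript, was at 290 to 351 and at 234, 207 and 186, without overlap (0.55 ± 0.125, SE; adjusted p = 0.111). Its list of nuclear noncoding RNAs and snoRNA hosts had 12 of 19 above 0 and a median of 0.13. That median was 0.27 without Neg, 0.08 without GFP and -0.03 with library totals, where all genes tested had -0.14.

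Other list medians near 0 also moved with single controls. Without Neg the median was 0.18 for lysosome genes, 0.14 for S phase and DNA replication, 0.17 for heat shock proteins and 0.01 for G2 and mitosis. Without RFP it was 0.26 for the interferon list and 0.03 for golgins and Golgi genes. Without GFP it was 0.06 for endocytosis, endosome and ESCRT genes.

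The shares of reads in markers of other cell types overlapped between the arms. Of 20 fibroblast markers 7 were tested, with a median of -0.09, and of 15 epithelial markers 12, with a median of -0.06. The epithelial median was 0.16 without GFP, with 7 of 12 above 0, 0.05 without RFP and -0.19 without Neg. Fibroblast markers took 0.0427% to 0.0896% of reads in the activation libraries and 0.062% to 0.0902% in the controls, and epithelial markers 0.0918% to 0.186% and 0.151% to 0.158%. LUM, PDGFRA, PDGFRB, POSTN, FAP and CLDN3 had no read in the 12 libraries. Of 14 hepatocyte and kidney-line markers only TF was tested.

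Of the 10 genes with the lowest p on the lower side, AC079781.5 alone was called. H2AFX, the histone variant that is phosphorylated at DNA breaks, had the most reads of them and was at 40.5 to 64.4 normalised CPM in the activation libraries and 54.0, 75.7 and 138 in Neg, RFP and GFP, with overlap (log2 fold change -0.74 ± 0.224, SE; adjusted p = 0.275, edgeR's quasi-likelihood test). EMC2, of the complex that inserts membrane proteins at the endoplasmic reticulum, was at 4.43 to 22.5 in the activation libraries and at 22.3 in RFP and 53.7 in GFP, with Neg between these controls (-1.39 ± 0.391, SE; adjusted p = 0.232). AC093827.4, an antisense transcript, was at 1.59 to 14.8 and at 21.9, 27.2 and 40.2, without overlap (-1.72 ± 0.477, SE; adjusted p = 0.223). Others had few reads. PLPP2, a lipid phosphatase, had 0 to 15 reads per activation library and 23.2, 22.1 and 25.1 in Neg, RFP and GFP. In normalised CPM that is 0 to 4.39 against 6.59, 6.84 and 40.8, with GFP far above the other controls. RAPGEF2, an activator of the GTPase Rap, had 2 to 15 reads per activation library and 45.8, 51.0 and 9.0 in the controls, which is 0.586 to 5.18 normalised CPM against 13.0, 15.8 and 14.7. PLEKHD1 had 0 to 4 reads and 29.2, 13.4 and 8.0, which is 0 to 1.14 normalised CPM against 8.3, 4.13 and 13.0. It passed the filter on read counts only through the controls. For these 3 genes the arms did not overlap (adjusted p = 0.213, 0.232 and 0.223, edgeR's quasi-likelihood test).

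On the higher side OST4, the smallest subunit of the oligosaccharyltransferase that glycosylates proteins, followed the respiratory genes. It was at 344 normalised CPM in GOLGA8N 2, 445 at the median and 515 in UBE2V1, and at 223 in Neg, 345 in RFP and 218 in GFP. GOLGA8N 2 and RFP met at the edge of the arms, and the log2 fold change was 0.70 ± 0.147 (SE; adjusted p = 0.0633, edgeR's quasi-likelihood test). It was the only gene called when RFP was left out.

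Each control library was also set against the median of the activation libraries, with 5 CPM added, to see which genes gave it its own profile. Several were near 0 reads in some libraries and far above 0 in others. MRPS36, a small mitochondrial protein, had 96 to 345 estimated reads in the activation libraries, and 4.0 in Neg, 0 in RFP and 72.0 in GFP. Without GFP the gene was called, with a fitted log2 fold change of 6.73 that rests on those 2 controls. AC116533.1, a processed pseudogene, had 0 reads in 5 activation libraries and 2019.5 to 2615.0 in TRPC5OS, LAPTM4B 2, COL6A6 and GOLGA8N 2, and had 2483.7, 1057.5 and 604.9 in Neg, RFP and GFP. RPL6P27, a pseudogene of a ribosomal protein gene, had 0 reads in LAPTM4B 2 and 167.2 to 960.4 in the other activation libraries, and 615.2 in Neg and 0 in RFP and GFP.

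RHOXF2 and RHOXF2B, near-identical homeobox genes on chromosome X, had reads in different libraries. In the activation libraries RHOXF2B had 293.0 to 765.0 reads, and RHOXF2 had 150.0 to 299.9 in 3 libraries and 0 in the others. Neg had 521.0 reads of RHOXF2 and 0 of RHOXF2B, while RFP had 0 of RHOXF2 and 617.0 of RHOXF2B. RRM2, a ribonucleotide reductase subunit, had among the activation libraries 0 reads in GOLGA8N 1, 11.1 in LAPTM4B 2, 12.8 in TTR and 316.1 to 444.7 in the other 6, and had 8.9 in Neg and 440.4 in RFP. PUF60, a splicing factor, had 0 reads in every activation library, and 133.8 in Neg and 0 in RFP and GFP. CDK11B, a cyclin-dependent kinase, had 0.1 to 130.1 reads in the activation libraries and 30.1, 0 and 0.9 in Neg, RFP and GFP. USP32P3, a pseudogene, had 0 to 23.7 and 0, 5.0 and 41.2. For AL138721.1, a processed pseudogene, the activation libraries had 359.8 to 897.8 reads and GFP 0. For GAGE13, of a family of near-identical genes, they had 0 to 1270.0 and GFP 0.

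Several of these values differ within an arm, and reads of near-identical copies that the quantifier moved from 1 feature to another cannot be told apart from changes of the gene.

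The arms also differed in composition. The TMM factor, by which edgeR scales a library so that most genes are level, was 0.9009 to 1.012 in the activation libraries and 1.085 in Neg, 1.049 in RFP and 1.125 in GFP. The means were 0.9734 ± 0.03318 (SD, n = 9) and 1.086 ± 0.03802 (SD, n = 3), with no overlap (exact two-sided permutation test, p = 0.00909, the smallest that 220 regroupings allow here). Without GFP p was 0.0364, again the smallest possible. The 50 most abundant genes took 31.0% to 34.5% of reads in the activation libraries and 30.2%, 31.2% and 30.9% in Neg, RFP and GFP (exact two-sided permutation test, p = 0.0182, and p = 0.0727 without GFP). Both measures were chosen after seeing the data.

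The scaling bears on every fold change given here. With library totals in place of TMM factors the median log2 fold change of all genes was -0.14, and with RLE size factors -0.02, beside 0.02 with TMM factors. Beside those medians the mitochondrial messenger RNAs stayed higher, at 0.20 and 0.31, and sterol and fatty acid genes lower, at -0.36 and -0.25. Under either scaling no gene was called, while 1015 and 958 genes had an unadjusted p under 0.05. MT-ND3 had a log2 fold change of 0.29 with totals and 0.41 with RLE factors, with adjusted p of 0.234 and 0.0556 in edgeR's quasi-likelihood test.

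**Figure D4:**
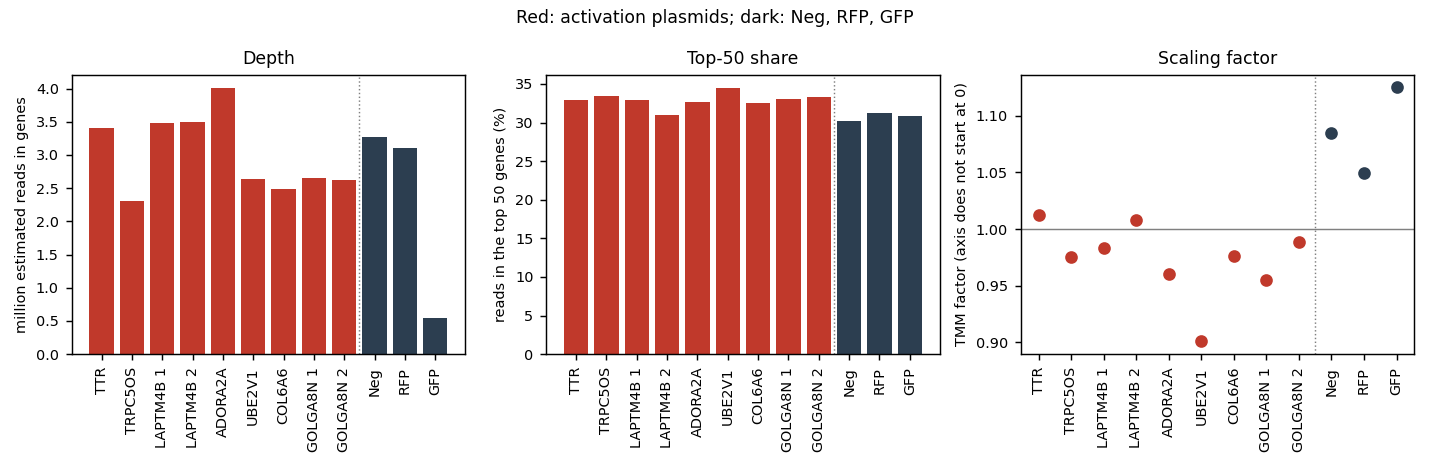
Estimated reads in genes, share of reads in the 50 most abundant genes (percent) and TMM scaling factor in each library, with activation libraries in red on the left and Neg, RFP and GFP dark on the right. GFP is the shallowest library at 549962 reads, and the 3 controls have the 3 highest scaling factors.

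The comparison was repeated without GFP, the shallow control. Then 13580 genes were tested and 2 called (0.0147%), MRPS36 and MT-ND3. Among the 1280 genes averaging 100 normalised CPM or more, GFP was the lowest of the 12 libraries for 37.1%, Neg for 12.0% and RFP for 5.7%, and UBE2V1 was the highest for 21.8%. List medians without GFP were 0.37 for mitochondrial messenger RNAs, 0.38 for globins and erythroid membrane genes, 0.20 for nuclear oxidative phosphorylation, 0.15 for ribosomal proteins and -0.26 for sterol and fatty acid synthesis. Their directions held, with 13 of 13, 19 of 21, 64 of 69 and 75 of 79 above 0 for the first 4 lists, and only 4 of 34 above 0 for the last. Without Neg no gene was called at all and 1192 had an unadjusted p under 0.05, and without RFP only OST4 was called.

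**Figure D5:**
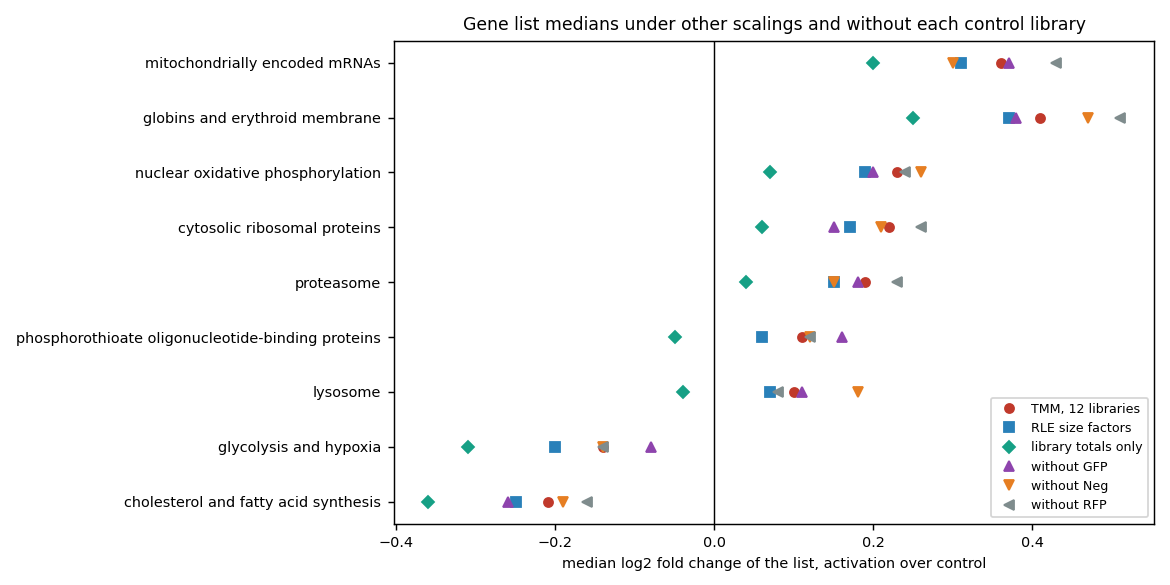
Median log2 fold change of 9 gene lists, activation over control plasmids, with TMM factors, RLE size factors and library totals over 12 libraries, and with TMM factors without GFP, Neg or RFP. Mitochondrial, globin, respiratory, ribosomal and proteasome medians are right of 0 at all 6 settings and the glycolysis and sterol medians left of it. The lysosome and oligonucleotide-binding medians cross 0 with library totals, where the median of all genes tested was -0.14.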

How the data were processed

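Neg, RFP and GFP formed the control arm and 9 unprefixed libraries naming a human gene the activation arm, both taken from the titles. Per the file headers, the deposited tables hold Salmon's estimated counts and TPM for 228297 transcripts, and the TPM made by the authors' quantifier were not used in tests. STAR 0.7.2, Salmon 0.7.2, UMI-tools and featureCounts are named in the submitters' processing notes, with the builds hg38 and GRCh38. The strand setting, and whether reads sharing a molecular identifier were merged, are not given in the sources used here.

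Gene sums of the deposited estimated counts, made with GENCODE 29 (GRCh38), were rounded. Of the transcripts, 205336 matched, and the unmatched held 3.32% to 3.6% of reads and were left out. The test of genes passing filterByExpr (minimum count 10) was that of edgeR 4.0.16 under R 4.3.3 (TMM factors, robust quasi-likelihood fit, activation over control, Benjamini-Hochberg adjustment over all genes tested, threshold 0.05). Normalised CPM are reads per 1000000 of the TMM-adjusted library size. A standard error is the log2 fold change divided by the square root of F. Floors of 3 reads and intervals cover counting error only, since sequenced reads need not be separate molecules. Simulated counts of 11446 genes gave a check of the fit. It recovered 4 of 50 genes changed 1.5-fold and 8 of 50 changed 2-fold. At 4-fold and 8-fold it recovered 28 and 27 of 50. Of its 71 calls, 4 were false.

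The comparison and the 32 gene lists were chosen with earlier results of these data known. The rule admitted all called genes, the 10 genes with the lowest p in each direction, the 3 lowest-p members of each list with 5 or more tested, the plasmid-named genes, and the 3 most extreme genes at each end per control library (log2 ratio with 5 CPM added, among genes at 20 CPM or more). Other genes of the mitochondrial genome, the respiratory, ribosomal, globin and sterol lists, ASNS, GATA1 and TFRC were named after their values were seen. Not every gene that the rule admits is printed, and some members of the lists are not reported here. Alternatives were DESeq2 1.42.0, limma-voom 3.58.1 with and without quality weights, other scalings and filters, summed or left-out libraries, all 17 libraries in 1 fit, and unmatched transcripts kept.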

Additional observations from a re-analysis of the deposited data

Results flagged for a closer look

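Among the 9 activation libraries, the highest or lowest library was set against its nearest neighbour for 56 values, namely the genes with the lowest p, the plasmid-named genes and the share of reads of each gene list. In 4 of the 56 it stood apart from the rest, where chance gives about 1 in 20. The number is near that share, so the 4 values are given as a description only. TTR, GPANK1 and ARHGEF4 also had 0 reads in most activation libraries, and for such genes that share need not hold. The TTR library had 11.7 normalised CPM of TTR, the gene its plasmid names, with 40 reads. The ADORA2A library had 3.67 normalised CPM of GPANK1, from 14.1 reads, where the other activation libraries had 0 to 2.4 reads. The LAPTM4B 1 library had 3.35 normalised CPM of ARHGEF4, from 11.3 reads, where the others had 0 to 4 reads. The LAPTM4B 2 library gave 1.36% of its reads to heat shock proteins and co-chaperones, a list that took 1.18% to 1.25% in the controls.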

How the results depend on the processing

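The 7 calls were recounted under 26 alternatives, of which 1, counting AC079781.5 and ASNS as 1 gene, was chosen after seeing the data and gave 6. There were 78 calls with DESeq2, 23 with limma-voom, 37 with voom quality weights and 3 without robust estimation. There were 0 with RLE size factors, with library totals only, with a minimum count of 30 and with unmatched transcripts kept, where 958, 1015, 753 and 1064 genes had an unadjusted p under 0.05. There were 92 with no filter, 11 with same-label libraries summed, 4 without both LAPTM4B libraries, 0 without both GOLGA8N libraries (921 at an unadjusted p under 0.05) and 13 with all 17 libraries in the fit. Leaving out 1 library at a time gave 0 to 13. The 0 counts are edgeR's. Over the genes with the lowest p and the plasmid-named genes, 423 values kept direction and side of the threshold, 96 were no longer called, 39 became called and 2 reversed: UBE2V1 was -0.02 with library totals only and -0.06 without Neg, beside 0.13, and ran from -0.06 to 0.44 with 1 library left out. The median of a gene list moved by more than the spread of the activation libraries in 64 of its recounts and not in 690. No paired analysis was possible because the control libraries carry no replicate number, and only the LAPTM4B and GOLGA8N labels share the numbers 1 and 2. The causes of these changes were not tested. At 3 reads GFP's floor of 5.455 CPM limits what can be said of low genes in the controls.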

Other observations

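A few other genes differed widely between libraries of 1 arm. NUPR1, a stress-induced chromatin protein, was at 0.409 to 10.2 normalised CPM in the activation libraries and at 5.07 in Neg, 6.18 in RFP and 41.8 in GFP. PPP2R5D, a regulatory subunit of the phosphatase PP2A, was at 0 to 28.0 in the activation libraries, at 8.64 in Neg and 8.54 in RFP, and at 225 in GFP. C6orf48 was at 343 in LAPTM4B 2 and at 8.77 to 26.1 in the other activation libraries, and at 7.92 in Neg, 364 in RFP and 22.3 in GFP. ZFPM1, the GATA1 cofactor FOG1, was at 12.3 to 28.8 in the activation libraries and at 10.5, 13.3 and 1.63 in Neg, RFP and GFP. CKS1B, a cyclin-dependent kinase subunit, was at 301 to 378 in the activation libraries and at 229, 323 and 148 in Neg, RFP and GFP.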
